A study of Mus musculus with 46 samples.

Results

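The 9 genes followed here mark resting microglia, the macrophages that live in the brain: Cx3cr1, Gpr34, Siglech, Fcrls, Selplg, Tmem119, Slco2b1, Olfml3 and Sparc. They were a fixed list, found by symbol in the tables of raw counts and of TPM (transcripts-per-million, a level scaled for transcript length and depth). All 9 of the 20999 genes listed were found once, and all 9 were among the 12230 genes with enough counts to be tested.

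The study asked which programmes dividing microglia share between settings and which depend on the setting. All mice were male C57BL/6, and cells were sorted with antibodies to CD11b, CD45 and CD44 after isolation in a buffer with sodium butyrate and flavopiridol. RNA was sequenced in 5 groups of 2 libraries, which the labels call independent biological replicates. Chromatin lists covered H3K27ac, an acetylated histone found at promoters and enhancers in use, in 6 groups of 2 libraries, with fewer libraries for H3K4me3, Rpb2 and open chromatin. Adult RNA came from untreated wild-type mice of 90 days, and all adult cells are labelled Ki67-negative. The other RNA came from Ki67-rfp mice, in which a red fluorescent protein reports Ki67, a protein of cycling cells, and each context was sorted into Ki67-negative and Ki67-positive cells. These contexts were postnatal day 8 (PND8, untreated) and repopulation, in mice of 75 days that had eaten PLX5622, an inhibitor of the CSF1 receptor that depletes microglia, for 17 days from day 55 and then recovered for 3 days. For H3K27ac all mice were wild type and cells were fixed and stained for Ki67: untreated adults of 60 and 65 days, both Ki67 classes at PND8, both classes from mice of 90 days fed cuprizone, a toxin that strips myelin, for 4 weeks, and repopulating Ki67-positive cells from mice of 90 days that began the same 17 days of PLX5622 at day 70. Repopulating cells are those present after depletion and recovery, and the labels do not say how many survived the drug. H3K4me3 came from untreated adults of 75 days, Rpb2, a subunit of RNA polymerase II, from untreated adults of 60 and 65 days and from PND8 Ki67-positive cells, and open chromatin from untreated adults of 80 days, PND8 Ki67-positive cells and Ki67-positive cells of 75 days on the feeding scheme of the RNA. The titles of the last 2 open chromatin samples name Ki67rfp, while their genotype is given as wild type.

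Microglia hold their resting state through contact with neurons, through TGF-beta and through CSF1 receptor signalling. Much of that state is seen at the cell surface. Cx3cr1 is the receptor for fractalkine, a chemokine on neurons, and Gpr34 is a G protein-coupled receptor for lysophosphatidylserine. Siglech belongs to the Siglec family of lectins and signals with Tyrobp (DAP12), and Fcrls belongs to the Fc receptor-like family. Selplg (PSGL-1) binds selectins, Tmem119 is a membrane protein widely used to tell microglia from other macrophages, and Slco2b1 carries organic anions across the membrane. Olfml3 and Sparc encode secreted proteins, Sparc being a matricellular glycoprotein that binds collagen.

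RNA libraries held 6865903 to 10287876 counts, and values are CPM (counts-per-million) after TMM scaling unless TPM is named. The 7 microglial markers outside the list summed to 5192 to 7090 CPM in every library, so the labelled cell type was borne by its defining markers. The 8 markers of border macrophages summed to 65.1 and 80.4 CPM in the adult libraries, 609.9 to 859.6 CPM in the 4 PND8 libraries and 26.2 to 43.0 CPM in the 4 repopulation libraries, where Lyve1 was at 0 and Cd209f was at 0. Mrc1 gave most of this sum, with 49.7 and 52.7 CPM in adult libraries, 519.7 to 833.6 CPM at PND8 and 25.6 to 41.3 CPM in repopulation. None of the other 7 markers passed 27.1 CPM in any library. Lyve1 had 12.75 and 27.1 CPM in PND8 Ki67-negative cells against 2.08 and 2.81 CPM in adult cells. Pf4 (10.15 and 15.6 against 1.85 and 2.2 CPM) and F13a1 (16.95 and 22.3 against 4.51 and 8.8 CPM) were also higher, as were Ms4a7 and Cbr2. Cd163 and Cd209f overlapped adult cells there. The 8 astrocyte markers summed to 242.3 and 250.5 CPM in adult libraries, 63.6 to 436.6 CPM at PND8 and 410.5 to 568.1 CPM in repopulation, where Slc1a3 alone had 398.4 to 551.8 CPM and none of the other 7 passed 9.78 CPM. The 8 monocyte or neutrophil markers reached 228.3 CPM in 1 adult library against at most 18.5 CPM outside the adult group. At PND8, Slc1a3 split by the numeric code in the column headers. It had 70.5 and 38.7 CPM under 1 code and 421 and 361.8 CPM under the other, Ki67-negative first. The repopulation libraries under that other code had 486.7 and 398.4 CPM. The marker levels above differed between some of the groups compared below, and their part in the results was not tested. Mki67 was at 11 and 13.4 CPM in adult libraries, 242.2 to 463.1 CPM in Ki67-negative libraries and 919.6 to 1107 CPM in Ki67-positive libraries.

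The genes lie on 6 chromosomes of mm10, and Tmem119 and Selplg are neighbours. Tmem119 (NM_146162) spans chr5:113793729-113800396 and Selplg (NM_009151) spans chr5:113817798-113830501, both on the minus strand, so 17402 bp separate them. Fcrls (NM_030707) spans chr3:87250965-87263524 and Olfml3 (NM_133859) spans chr3:103735394-103738001, both on the minus strand. Cx3cr1 (NM_009987) spans chr9:120048683-120068296 on the minus strand, and Gpr34 (NM_011823) spans chrX:13632769-13640858 on the plus strand. Siglech (NM_178706) spans chr7:55768184-55778925 on the plus strand and Slco2b1 (NM_001252530) spans chr7:99657804-99706842 on the minus strand. Sparc (NM_009242) spans chr11:55394159-55420080 on the minus strand.

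Promoter sequences from RefSeq (build GRCm38.p6, 250 bases before to 50 after the start) matched 6 of the 9 genes. The promoters of Tmem119, Gpr34 and Selplg were not used here. Letters were searched on both strands for GGAAGT, the core read by ETS factors such as PU.1, for AGGAAGT, a longer form that contains it, for TATAAA, the motif called the TATA box, and for CCGCCC, the GC box. Fcrls is shown because it had the largest RNA difference of the 9 and Siglech because it carries the core alone, and 2 starts of Slco2b1 are shown because only 1 of them lay inside H3K27ac. Capitals mark GGAAGT or AGGAAGT as read on either strand.
Fcrls, chr3:87263475-87263774, minus strand: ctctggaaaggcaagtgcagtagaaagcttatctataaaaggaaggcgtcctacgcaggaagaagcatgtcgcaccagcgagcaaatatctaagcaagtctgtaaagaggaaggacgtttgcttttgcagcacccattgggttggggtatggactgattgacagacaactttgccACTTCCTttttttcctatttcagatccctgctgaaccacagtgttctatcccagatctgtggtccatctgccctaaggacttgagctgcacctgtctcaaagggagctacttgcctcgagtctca
Siglech, chr7:55767934-55768233, plus strand: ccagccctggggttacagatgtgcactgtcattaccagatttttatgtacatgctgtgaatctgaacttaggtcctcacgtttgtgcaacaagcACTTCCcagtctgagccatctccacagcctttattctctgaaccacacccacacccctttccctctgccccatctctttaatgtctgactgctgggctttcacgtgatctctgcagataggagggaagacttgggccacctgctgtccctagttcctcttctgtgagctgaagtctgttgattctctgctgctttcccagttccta
Slco2b1, start used in the counts, chr7:99706793-99707092, minus strand: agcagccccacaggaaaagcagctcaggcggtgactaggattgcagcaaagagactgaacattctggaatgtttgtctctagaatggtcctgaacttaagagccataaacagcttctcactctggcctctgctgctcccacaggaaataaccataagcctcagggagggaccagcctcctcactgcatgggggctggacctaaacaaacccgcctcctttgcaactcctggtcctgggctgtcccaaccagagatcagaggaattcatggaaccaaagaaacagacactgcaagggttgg
Slco2b1, upstream start, chr7:99711291-99711590, minus strand: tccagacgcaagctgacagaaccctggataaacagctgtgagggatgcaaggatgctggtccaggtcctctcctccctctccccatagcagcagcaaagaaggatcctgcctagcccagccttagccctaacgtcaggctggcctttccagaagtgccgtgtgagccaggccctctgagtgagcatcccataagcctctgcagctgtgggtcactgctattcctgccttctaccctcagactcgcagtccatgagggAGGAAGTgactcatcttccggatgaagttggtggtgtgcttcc

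In Fcrls the longer form was read on the opposite strand from 75 bases before the start, and TATAAA began 217 bases before it. In Siglech the core was read on the opposite strand from 156 bases before the start. The Slco2b1 start used in the counts held none of the 4 motifs, while the upstream start held the longer form 7 bases after it. Olfml3 held 3 GC boxes, which began 19, 13 and 8 bases before its start, and the windows of Cx3cr1 and Sparc held none of the 4 motifs. Of all 32851 promoter windows in the table, 23.8% held GGAAGT, 9.35% held AGGAAGT, 13.6% held TATAAA and 35.7% held CCGCCC. The members' windows had 2 to 8 CpG dinucleotides against a median of 7 over all windows.

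Every member was among the most abundant transcripts of each library. In the adult libraries the mean levels were 635 TPM ± 4.18 (SD, n = 2) for Cx3cr1, 558 TPM ± 7.21 (SD, n = 2) for Tmem119, 529 TPM ± 10.8 (SD, n = 2) for Fcrls, 505 TPM ± 12.51 (SD, n = 2) for Olfml3 and 498 TPM ± 2.67 (SD, n = 2) for Selplg. Sparc followed at 472 TPM ± 3.00 (SD, n = 2), Gpr34 at 447 TPM ± 3.22 (SD, n = 2), Siglech at 410.1 TPM ± 1.77 (SD, n = 2) and Slco2b1 at 380.0 TPM ± 1.53 (SD, n = 2). Olfml3 and Selplg were the neighbours in this order whose 2 libraries overlapped. Over all 10 libraries Cx3cr1 ranked between 8 and 29 of 20999 genes by TPM and Sparc between 9 and 26, whereas Fcrls ranged from rank 16 to rank 259 and Selplg from 18 to 138. Tmem119, with ranks 14 to 49, and Siglech, with ranks 27 to 69, stayed closer to the top than Gpr34 (28 to 100), Slco2b1 (40 to 109) and Olfml3 (18 to 76) did at their lowest.

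**Figure D1:**
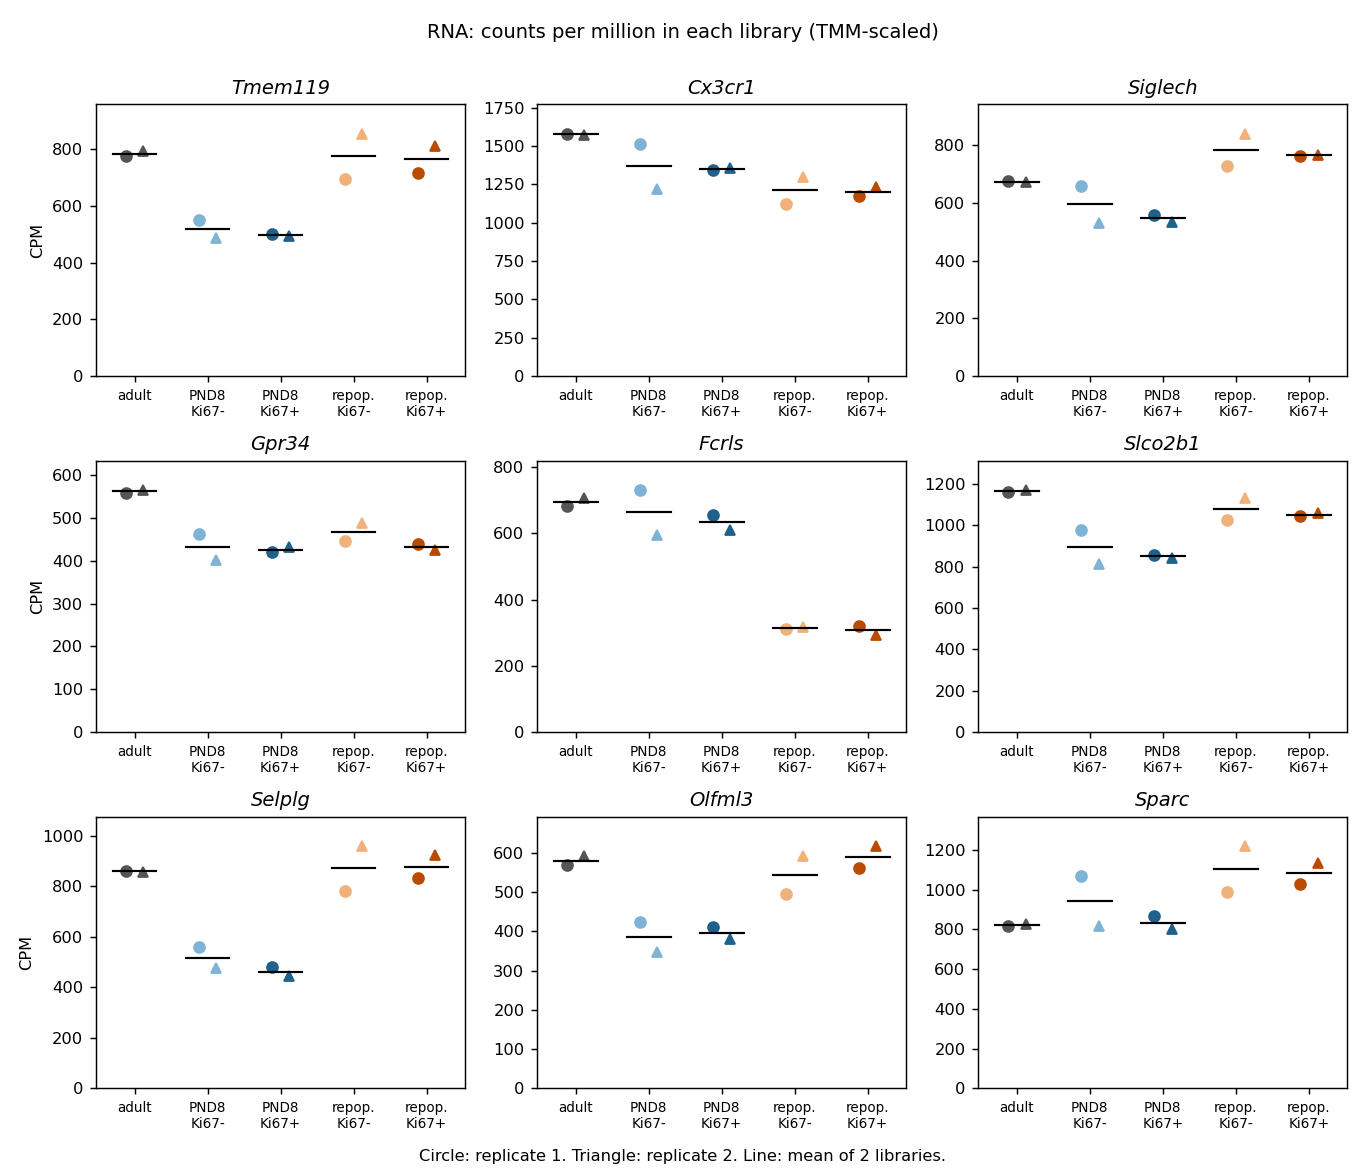
RNA level of each gene in CPM (vertical axis, from 0, 1 panel per gene) in the 10 libraries, by group (Ki67- negative, Ki67+ positive, repop. repopulation), with a circle for replicate 1, a triangle for replicate 2 and a line for the mean of 2 libraries. Fcrls is near 300 CPM only in repopulation (294 to 321), Selplg, Tmem119 and Olfml3 are lowest at PND8, and no gene separates Ki67-negative from Ki67-positive cells in both contexts.

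At PND8, 5 of the 9 genes were lower in Ki67-negative cells than in adult cells and 6 were lower in Ki67-positive cells, and none was called higher. With depth as a covariate, or without PND8 Ki67-negative replicate 2, Sparc was called higher in Ki67-negative cells (0.26, adjusted p = 0.0109, and 0.35, adjusted p = 0.0161, by edgeR). Selplg, Tmem119 and Olfml3 differed most, Gpr34 and Slco2b1 less, and Siglech passed the test in Ki67-positive cells alone. Fcrls, Cx3cr1 and Sparc passed in neither. Among all genes tested 46.8% were called for Ki67-negative and 49.5% for Ki67-positive cells, with 21.4% and 24.3% called lower and 25.4% and 25.1% called higher. The median log2 fold change of the 9 genes was −0.38 and −0.40, against 0.03 and 0.00 over all genes. When only the groups compared were fitted, 5 and 8 of the 9 genes were called lower, Ki67-negative first, and none higher. That fit called 2265 of 11803 and 3377 of 11740 genes lower, and 2458 and 3489 higher.

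In repopulation 4 of the 9 genes differed from adult cells in Ki67-negative cells and 4 in Ki67-positive cells: Fcrls, Cx3cr1 and Gpr34 were lower and Sparc was higher in both. Fcrls fell more than any other member. Tmem119, Selplg, Olfml3, Slco2b1 and Siglech passed in neither. Of all genes tested, 39.2% were called for Ki67-negative and 44.9% for Ki67-positive cells, with 17.6% and 21.0% lower and 21.5% and 23.9% higher, so a share of 4 in 9 is near the background. The median of the 9 log2 fold changes was −0.10 and −0.04, against −0.01 over all genes in both. When only the groups compared were fitted, 5 members were called in Ki67-negative cells (2 higher and 3 lower). In Ki67-positive cells that fit called 6 (2 higher and 4 lower). Over all genes it called 5411 of 11651 and 6318 of 11667, Ki67-negative first.

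Set directly against PND8, repopulating cells had more Selplg, Tmem119, Olfml3, Siglech and Slco2b1 and less Fcrls in both Ki67 classes, and more Sparc in Ki67-positive cells. These were 6 of 9 genes in Ki67-negative cells, where 36.6% of all genes were called (18.0% higher and 18.6% lower), and 7 of 9 in Ki67-positive cells, where 30.9% were called (16.7% higher and 14.2% lower). The 4 comparisons with adult cells share the same 2 adult libraries, and the 2 comparisons of repopulation with PND8 do not use them. In bulk RNA, fewer cells with a transcript and less transcript per cell cannot be told apart. Adult libraries also differ from all others in genotype and in the numeric code of their column headers, so that code, the reporter and the adult state cannot be told apart. All p-values below are Benjamini-Hochberg adjusted values from edgeR's quasi-likelihood test over the 12230 genes.

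**Figure D2:**
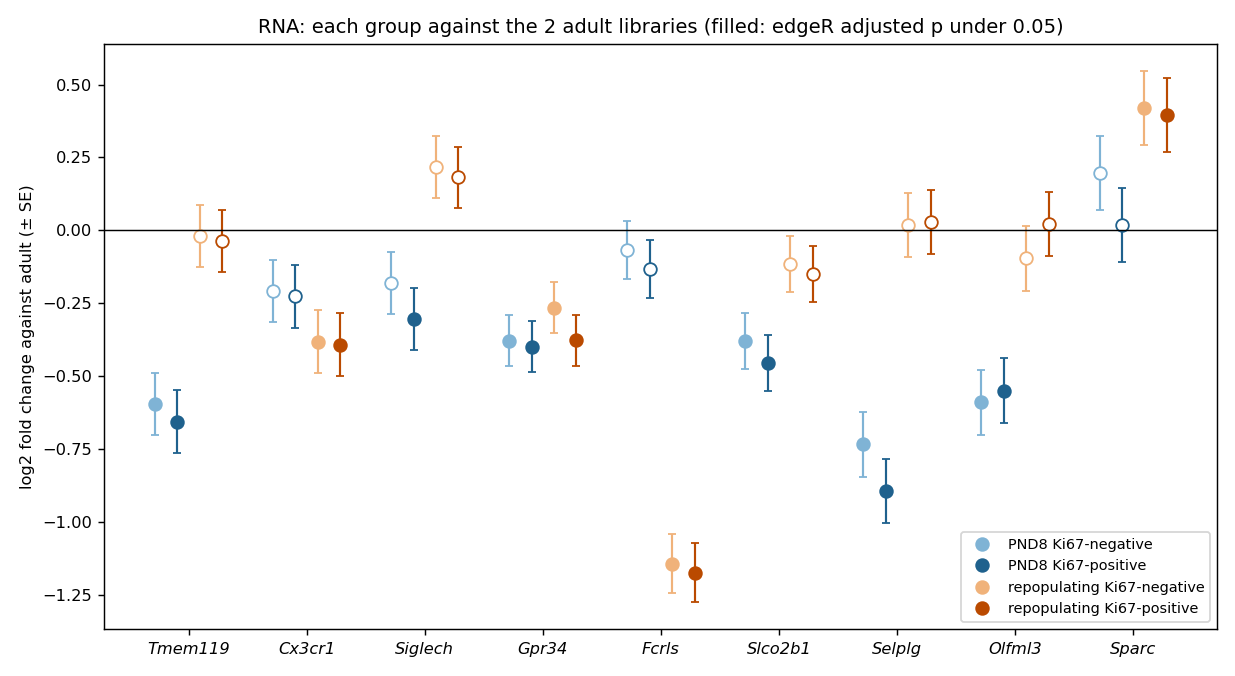
Log2 fold change of each gene against the 2 adult libraries (vertical axis, bars ± SE of the fit) for the 4 PND8 and repopulation groups, each of 2 libraries, with filled points for an edgeR adjusted p under 0.05. Fcrls is at −1.14 and −1.18 in repopulation and at −0.07 and −0.13 at PND8, while Selplg, Tmem119 and Olfml3 lie between −0.89 and −0.55 at PND8 and between −0.10 and 0.03 in repopulation.

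Among the receptors, Fcrls had 683 and 707 CPM in adult cells, 732 and 595 CPM in PND8 Ki67-negative cells and 656 and 611 CPM in PND8 Ki67-positive cells. Repopulating cells had 312 and 318 CPM when Ki67-negative and 321 and 294 CPM when Ki67-positive. All 4 repopulation libraries lay below all 6 others, and below the lowest of them, at 595 CPM, by a wide gap. The log2 fold change against adult was −1.14 (SE 0.101, adjusted p = 1.42e-06), or 2.21-fold lower, in Ki67-negative cells and −1.18 (SE 0.101, adjusted p = 8.38e-07), or 2.26-fold lower, in Ki67-positive cells. Against PND8 it was −1.08 (adjusted p = 2.95e-06) and −1.04 (adjusted p = 4.58e-06). Both calls against adult and both against PND8 remained when any 1 library was left out. PND8 cells differed from adult by −0.07 and −0.13, which did not pass the test (adjusted p = 0.603 and 0.284).

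Cx3cr1, the fractalkine receptor, had 1582.5 and 1575 CPM in adult cells and 1124 to 1298 CPM in the 4 repopulation libraries, with no overlap. PND8 libraries ran from 1219.6 to 1516 CPM and overlapped the range of repopulation. The repopulation difference was −0.38 (SE 0.108, adjusted p = 0.0126) in Ki67-negative and −0.39 (SE 0.108, adjusted p = 0.00943) in Ki67-positive cells. It ended as a call in Ki67-negative cells without adult replicate 1 (adjusted p = 0.0671), adult replicate 2 (0.0649) or repopulation replicate 1 (0.0960), and in Ki67-positive cells without adult replicate 1 (0.0532) or repopulation replicate 1 (0.0517). At PND8 the values of −0.21 and −0.23 did not pass (adjusted p = 0.131 and 0.0960).

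Gpr34, the lysophosphatidylserine receptor, was the gene lower than adult in all 4 other groups. It had 558 and 566 CPM in adult cells, 402 to 462 CPM at PND8 and 426 to 489 CPM in repopulation. Each of the 8 other libraries lay under both adult ones, which was also so for Cx3cr1 and Slco2b1. For Gpr34, PND8 and repopulation overlapped each other. The log2 fold changes were −0.38 (adjusted p = 0.00312) and −0.40 (adjusted p = 0.00194) at PND8 and −0.26 (adjusted p = 0.0278) and −0.38 (adjusted p = 0.00333) in repopulation, Ki67-negative first. In repopulating Ki67-negative cells the call was lost without adult replicate 1 (adjusted p = 0.105), adult replicate 2 (0.137) or repopulation replicate 1 (0.170).

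Siglech, the member of the Siglec family, moved apart between the 2 contexts. It had 674 and 673 CPM in adult cells, 529 to 660.0 CPM at PND8 and 727 to 840.4 CPM in repopulation. Every PND8 library was below adult and every repopulation library was above it. Against adult only the PND8 Ki67-positive value of −0.30 passed (adjusted p = 0.0290), and it was lost without any 1 of the 4 libraries compared (adjusted p from 0.0835 to 0.150). Repopulation exceeded adult by 0.22 and 0.18, which did not pass (adjusted p = 0.12 and 0.177). The direct difference between repopulation and PND8 was 0.40 (SE 0.106, adjusted p = 0.01) in Ki67-negative cells and 0.49 (SE 0.106, adjusted p = 0.00360) in Ki67-positive cells. The Ki67-negative call was lost without repopulation replicate 2 (adjusted p = 0.0821).

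Selplg, the selectin ligand, had the largest PND8 difference of the 9 genes. Its adult libraries had 861 and 858 CPM, PND8 Ki67-negative cells 557 and 476 CPM, PND8 Ki67-positive cells 479 and 445 CPM, and repopulating cells 781 to 959 CPM. All 4 PND8 libraries lay below the other 6, and the repopulation libraries lay on both sides of adult. Against adult the log2 fold change was −0.73 (SE 0.110, adjusted p = 0.000137), or 1.66-fold lower, in Ki67-negative and −0.89 (SE 0.111, adjusted p = 2.13e-05), or 1.86-fold lower, in Ki67-positive cells. In repopulation it was 0.02 (adjusted p = 0.918) and 0.03 (adjusted p = 0.850). Repopulation exceeded PND8 by 0.75 (adjusted p = 0.000171) and 0.92 (adjusted p = 3.3e-05).

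Tmem119, its neighbour on chromosome 5, followed nearly the same course. It had 776 and 794 CPM in adult cells, 487 to 552 CPM at PND8 and 694 to 855 CPM in repopulation. PND8 libraries again stood below all others. The PND8 differences from adult were −0.60 (SE 0.107, adjusted p = 0.000559), or 1.51-fold lower, and −0.66 (SE 0.107, adjusted p = 0.000223), or 1.58-fold lower. Repopulation differed from adult by −0.02 and −0.04 (adjusted p = 0.909 and 0.803) and from PND8 by 0.58 (adjusted p = 0.00103) and 0.62 (adjusted p = 0.000705).

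Slco2b1, the organic anion transporter, had 1159 and 1171 CPM in adult cells, 813 to 976 CPM at PND8 and 1023 to 1129.6 CPM in repopulation. The 3 ranges did not overlap, with repopulation in between. PND8 differed from adult by −0.38 (adjusted p = 0.00557) and −0.45 (adjusted p = 0.00158), and repopulation by −0.11 and −0.15, which did not pass (adjusted p = 0.373 and 0.225). Repopulation exceeded PND8 by 0.27 (adjusted p = 0.0443) and 0.31 (adjusted p = 0.0281). The Ki67-negative call was lost without PND8 replicate 2 (adjusted p = 0.102) or repopulation replicate 2 (0.199), and the Ki67-positive call without any 1 of the 4 libraries (0.108 to 0.166). Neither was called when the fit held a term for the header code and left out the adult libraries (0.0737 and 0.0532).

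Of the secreted proteins, Olfml3 had 569 and 592 CPM in adult cells, 347 to 425 CPM at PND8 and 494 to 618.1 CPM in repopulation. The PND8 libraries lay below all 6 others. The PND8 differences were −0.59 (SE 0.112, adjusted p = 0.000826), or 1.51-fold lower, and −0.55 (SE 0.112, adjusted p = 0.00119), or 1.46-fold lower, and repopulation differed from adult by −0.10 and 0.02 (adjusted p = 0.525 and 0.893). Repopulation exceeded PND8 by 0.49 (adjusted p = 0.00391) and 0.57 (adjusted p = 0.00175). The calls of Selplg, Tmem119 and Olfml3 against adult at PND8, and of repopulation against PND8, remained when any 1 library was left out.

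Sparc was the gene called higher than adult. It had 819 and 829.7 CPM in adult cells, 801 to 1071 CPM at PND8 and 987 to 1220.3 CPM in repopulation. Repopulation libraries lay above adult, while PND8 Ki67-negative replicate 1, at 1071 CPM, stood above the other PND8 libraries and within the range of repopulation. The repopulation differences from adult were 0.42 (SE 0.127, adjusted p = 0.0185), or 1.34-fold, in Ki67-negative and 0.39 (SE 0.127, adjusted p = 0.0223), or 1.31-fold, in Ki67-positive cells. The Ki67-negative call was lost without adult replicate 1 (adjusted p = 0.0969), adult replicate 2 (0.0832) or repopulation replicate 2 (0.181), and the Ki67-positive call without adult replicate 1 (0.107), adult replicate 2 (0.0886) or repopulation replicate 2 (0.136). Against PND8 the Ki67-positive difference was 0.38 (adjusted p = 0.0381), lost without any 1 of the 4 libraries, and the Ki67-negative difference was 0.22 (adjusted p = 0.187).

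1 header code is shared by 1 library of each PND8 class and 1 of each repopulation class, so repopulation and PND8 could be set against each other within it, with no replicate and no test. Within that code the log2 difference was −0.93 for Fcrls in both Ki67 classes. It was 0.71 and 0.90 for Selplg, 0.51 and 0.54 for Tmem119, 0.51 and 0.56 for Olfml3, 0.46 and 0.51 for Siglech and 0.33 and 0.31 for Slco2b1, Ki67-negative first. Sparc differed by 0.27 and 0.36, Gpr34 by 0.15 and 0.02 and Cx3cr1 by −0.12 and −0.21. Each of these 9 genes kept within the code the sign it had with all libraries. The libraries under that code are among those that gave that sign. For Fcrls, Selplg, Tmem119, Olfml3, Siglech and Slco2b1, the repopulation and PND8 libraries did not overlap in either Ki67 class. The same held for Sparc and Cx3cr1 in Ki67-positive cells. Any pair of such libraries gives the same sign, so there the kept sign was no check of the header code.

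Ki67 status moved none of the 9 genes past the threshold. At PND8 the log2 difference of Ki67-positive from Ki67-negative cells ran from −0.18 for Sparc to 0.04 for Olfml3, with SEs of 0.0872 to 0.127, and 0 of 9 genes were called where 5.90% of all genes were (2.75% higher and 3.15% lower). In repopulation it ran from −0.11 for Gpr34 to 0.12 for Olfml3, and 0 of 9 were called where 2.74% of all genes were (1.87% higher and 0.867% lower). No member reached an unadjusted p under 0.05 by edgeR's quasi-likelihood test (the smallest was 0.171, for Selplg at PND8), and DESeq2 called 0 in both contexts as well. The libraries overlapped for every gene in both contexts except Gpr34 in repopulation, with 447 and 489 CPM in Ki67-negative and 439 and 426 CPM in Ki67-positive cells. A missed threshold does not show equal levels. The difference of the Ki67 effect between the contexts ran from −0.09 to 0.17 over the 9 genes, and edgeR called it for 0 of 9 and for 0 of all genes. Within a header code the PND8 values ran from −0.31 to −0.04 under 1 code and from −0.10 to 0.15 under the other, and the repopulation values from −0.03 to 0.18 and from −0.20 to 0.06.

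Over the 10 libraries the 9 genes fell into unlike courses. Pearson's r of log2 CPM was 0.992 for Tmem119 with Selplg, 0.975 for Tmem119 with Olfml3, 0.967 for Selplg with Olfml3, 0.945 for Tmem119 with Slco2b1 and 0.916 for Siglech with Selplg. Cx3cr1 went with Fcrls (r = 0.784) and with Gpr34 (r = 0.731). Fcrls ran opposite to Sparc (r = −0.716) and to Siglech (r = −0.715). These are descriptions over 10 libraries that share 5 groups and a scaling, with no test.

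**Figure D3:**
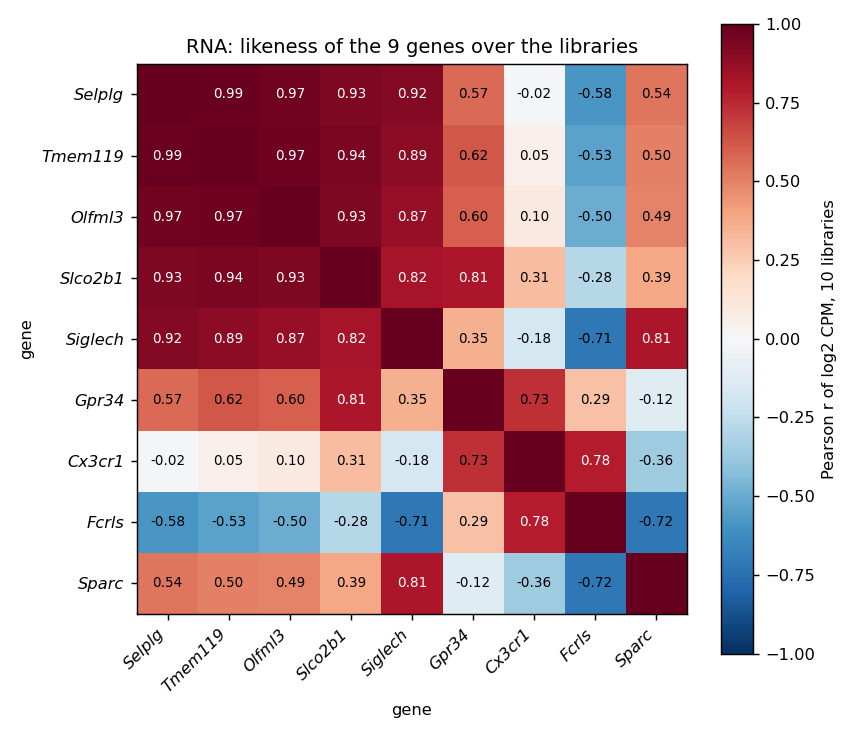
Pearson's r of log2 CPM over the 10 RNA libraries for each pair of the 9 genes (both axes list the genes, colour and number give r). Selplg, Tmem119, Olfml3, Slco2b1 and Siglech form a block of high r (Tmem119 with Selplg 0.992), and Fcrls runs opposite to Sparc (−0.716).

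Among 6845 genes of average log2 CPM of at least 5, those with the courses most like Tmem119 were Lims1 and Ncf1 (both r = 0.985). Selplg was closest to Tmem173 (r = 0.990) and Lims1 (r = 0.987), and Olfml3 to Otulinl (r = 0.978) and Lims1 (r = 0.970). Fcrls was closest to Pafah1b2 (r = 0.987) and Tmem33 (r = 0.985), Cx3cr1 to Lrch4 (r = 0.970) and Picalm (r = 0.958), and Gpr34 to Tnfrsf21 (r = 0.990) and P2ry10b (r = 0.982). Siglech was closest to Fgd2 (r = 0.977) and Bin2 (r = 0.976), Slco2b1 to Fam102b (r = 0.985) and Adap2 (r = 0.984), and Sparc to Man2b1 (r = 0.984) and Pld4 (r = 0.960).

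Among 32 other homeostatic and sensing genes of microglia, all tested, 3 were higher and 13 lower in PND8 Ki67-negative cells than in adult cells, and 1 was higher and 17 lower in PND8 Ki67-positive cells. In repopulation 4 were higher and 12 lower in Ki67-negative cells and 2 higher and 14 lower in Ki67-positive cells. Over all genes 25.4% were higher and 21.4% lower in the first of these comparisons, 25.1% and 24.3% in the second, 21.5% and 17.6% in the third and 23.9% and 21.0% in the fourth. The medians of these 4 comparisons, in that order, were −0.20, −0.31, −0.06 and −0.20. Upk1b, a tetraspanin, was the lowest in each: −6.07 and −7.65 at PND8 and −2.39 and −3.11 in repopulation. Crybb1, a crystallin gene of microglia, fell in repopulation, with log2 values of −2.03 and −2.62, as did Lag3, an inhibitory receptor, with −1.37 and −1.83. Against PND8, 9 of the 32 were higher and 6 lower in repopulation in either Ki67 class. There 18.0% of all genes were higher and 18.6% lower in Ki67-negative cells and 16.7% and 14.2% in Ki67-positive cells. Between the Ki67 classes at PND8, 0 of the 32 were higher and 4 lower in Ki67-positive cells, where 2.75% of all genes were higher and 3.15% lower. In repopulation 0 were higher and 1 lower, where 1.87% of all genes were higher and 0.867% lower.

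Of 11 ligand, signalling and processing partners of the members, 7 had enough counts to be tested. Adam10, a protease that sheds cell-surface proteins, rose in repopulation by 0.67 (adjusted p = 0.000298) and 0.60 (adjusted p = 0.000514). Tyrobp, the adaptor of Siglech, rose by 0.38 (adjusted p = 0.0109) and 0.34 (adjusted p = 0.0149). Adam17, a related sheddase, differed by 0.22 and 0.19, which did not pass (adjusted p = 0.0572 and 0.0930). Abhd12 and Abhd16a, enzymes of lysophosphatidylserine turnover, passed in none of the 8 comparisons, with values against adult of −0.06 to 0.19. Syk, a kinase that signals downstream of Tyrobp, was lower than adult in PND8 Ki67-positive cells by edgeR (−0.32, adjusted p = 0.00488) and was called in no other comparison. Cx3cl1, the ligand of Cx3cr1, had 16 to 35 counts in PND8 libraries and 0 to 5 in the other 6.

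The members' counts are among the densest in these libraries, which bears on how they were made. The deposited counts allow at most 3 tags per position, and the members had 1.03 to 3.65 counts per exonic base, ranking between 8 and 249 of 20999 genes. In PND8 Ki67-negative cells all 9 genes were lower in the deeper library (10287876 counts) than in the shallower (8063370 counts), by a median log2 difference of −0.29, while the median was 0.02 over all genes and −0.15 over the 200 genes with the most counts per exonic base. In repopulating Ki67-negative cells all 9 were again lower in the deeper library (9771006 against 6865903 counts), by a median of −0.21, against 0.00 over all genes and −0.23 over the 200 densest. The other 3 groups had 6, 2 and 7 of 9 lower in the deeper library. With depth as a covariate, or with scaling factors from genes under 1 count per exonic base, both chosen after seeing the data, the calls of Fcrls in repopulation against adult and against PND8 held. With that scaling Sparc was no longer called in repopulation against PND8 in Ki67-positive cells (adjusted p = 0.0551). With the covariate, 7 members rather than 5 were called for PND8 Ki67-negative against adult, as Cx3cr1 (−0.16, adjusted p = 0.0481) and Sparc were added.

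H3K27ac lay at or beside the start of every member in every group. A region reached to within 1 kb of the start in both libraries of all 6 groups for 9 of 9 genes, where the share of all genes was 68.7% in adult, 80.5% and 82.3% at PND8 and 73.4% and 76.8% after cuprizone (negative class first) and 79.0% in repopulating cells. The region did not reach the start itself for Olfml3 in both adult, both PND8 Ki67-negative and 1 library of each cuprizone class, for Cx3cr1 in 1 cuprizone Ki67-negative library and for Sparc in 1 repopulation library. For Olfml3 in adult replicate 1 it covered only 25 of the 2000 bp within 1 kb. Within 20 kb on each side of the start, a window of 40000 bp, the median covered length over the 9 genes was 7407 to 10502 bp per library, against 1848 to 3092 bp over all genes. The windows of Tmem119 and Selplg overlap, since their starts lie 30105 bp apart. Regions were called separately in each library, and the covered length of the genome ran from 30.0 Mb in adult replicate 1, with 32.6% of tags in regions, to 52.1 Mb. Adult replicate 1 stood apart from adult replicate 2 (42.0 Mb, 58.3% of tags), and comparisons of covered length with adult rest on it. With 2 libraries a group an exact permutation test cannot give a p under 0.33, so lengths are a description.

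Fcrls was the member whose covered length was shorter in both repopulation libraries than in any other library. It had 7216 and 8374 bp covered within 20 kb in adult cells, 9122 and 8835 bp in PND8 Ki67-negative, 9034 and 9500 bp in PND8 Ki67-positive, 8052 and 10784 bp in cuprizone Ki67-negative, 8288 and 11711 bp in cuprizone Ki67-positive and 7161 and 4681 bp in repopulating cells. Replicate 1 of repopulation was only narrowly below adult replicate 1, and replicate 2 was below all others by a wide gap. Over all genes 2.67% had both repopulation lengths below both adult ones and 54.4% had both above. The separation of Fcrls from adult was lost among regions at least 8 times the input, where adult replicate 1 had 2886 bp. Leaving out a library cannot undo a separation of lengths, so doing so was no check of it.

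A region upstream of Fcrls, where the annotation holds no gene, was shorter or not called in repopulation. Its fold over input was 4.26 in adult replicate 1, near the authors' limit of 4, and 7.45 in repopulation replicate 1. It was 5.59 to 31.2 in the other libraries where the region was called. In adult replicate 2 it spanned chr3:87272849-87275750, 9.3 to 12.2 kb before the start. It was 2656 and 2901 bp long in adult cells, 3166 and 3132 bp in PND8 Ki67-negative, 3580 and 3459 bp in PND8 Ki67-positive, 2219 and 3299 bp in cuprizone Ki67-negative and 2471 and 3129 bp in cuprizone Ki67-positive cells. In repopulating cells it was 1817 bp long in replicate 1 and was not called in replicate 2. At the start itself a region was called in all 12 libraries and covered 1973 to 2000 of the 2000 bp within 1 kb. By the authors' signal that region ranked 488 to 1845 within the lists of the 10 other libraries and 3353 of 30129 and 3711 of 27008 in the repopulation lists, and ranks in lists of unlike length cannot show whether it changed.

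Gpr34 and Sparc also had lengths that separated groups. Gpr34 had 9874 and 9982 bp in adult cells and 6200 to 9173 bp in the 10 other libraries, all below adult. The share of all genes shorter than adult in both libraries was 5.62% and 3.94% at PND8 and 2.38% and 3.18% after cuprizone (negative class first) and 2.67% for repopulation. At 8 times the input the Gpr34 difference from adult that held was that of repopulation (6200 and 6909 bp against 7966 and 9982 bp). Sparc had 8636 and 10821 bp in adult cells, 6352 to 7134 bp in the 4 PND8 libraries, 8085 to 10502 bp in the 4 cuprizone libraries and 12107 and 11027 bp in repopulating cells. PND8 lay below adult and repopulation above it, where 54.4% of all genes were longer in repopulation than in adult cells. At 8 times the input adult replicate 1 had 3087 bp, and neither separation of Sparc from adult held.

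**Figure D4:**
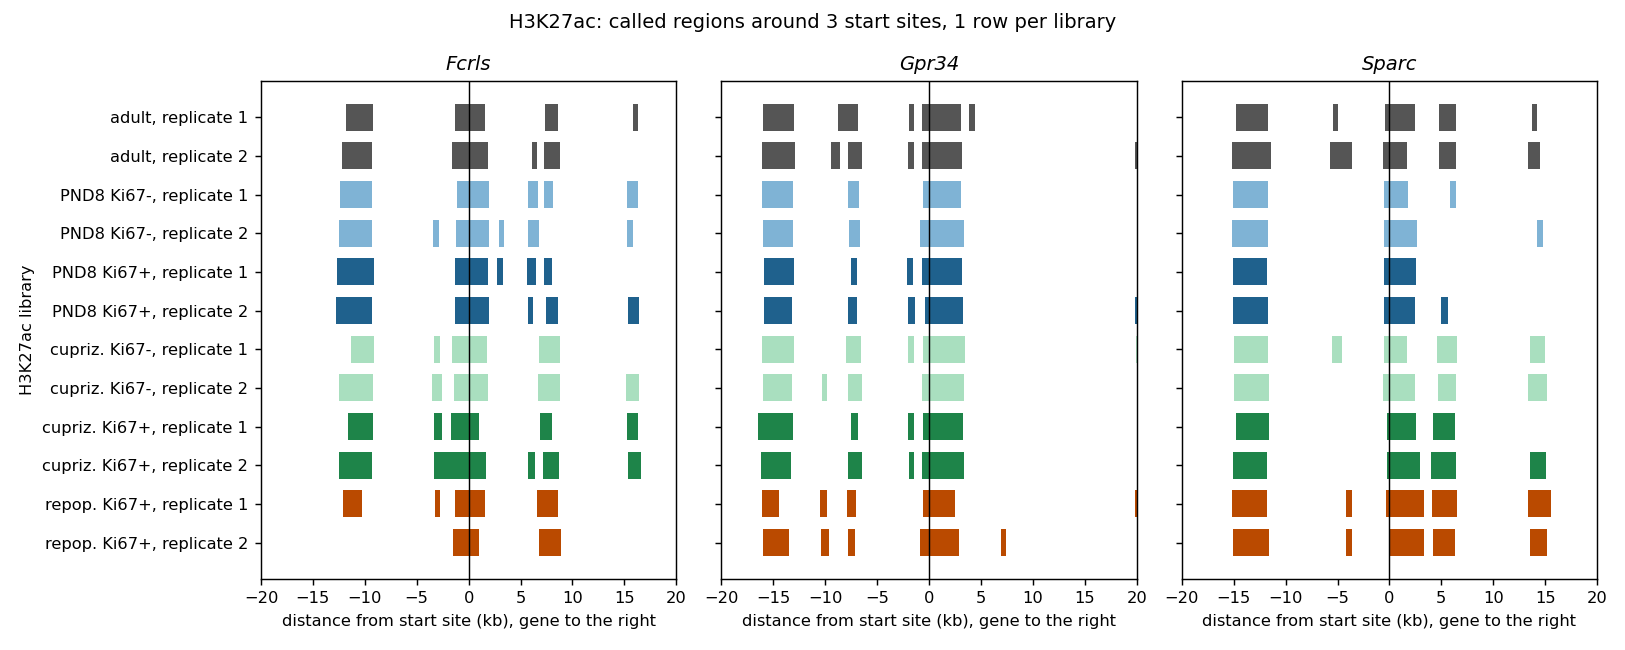
H3K27ac regions as called by the authors around the starts of Fcrls, Gpr34 and Sparc (horizontal axis, distance from the start in kb with the gene to the right; 1 row for each of the 12 libraries, cupriz. cuprizone, repop. repopulation). The Fcrls region 9.1 to 12.8 kb upstream is 1817 bp long in repopulation replicate 1 and not called in replicate 2. The Sparc region between 3981 and 6486 bp into the gene is longest in repopulating and cuprizone Ki67-positive cells.

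Within Sparc, a region lying between 3981 and 6486 bp downstream of the start varied in length, and its part in the total was not computed. It was 1649 and 1559 bp long in adult cells, 1851 and 1733 bp in cuprizone Ki67-negative, 2155 and 2427 bp in cuprizone Ki67-positive and 2356 and 2147 bp in repopulating cells. At PND8 it was 633 bp and not called in Ki67-negative cells and not called and 669 bp in Ki67-positive cells, replicate 1 first. In the length of this region the PND8 libraries were thus below all others, and the Ki67-positive cuprizone and repopulation libraries above all others. No share over all regions stands beside these separations.

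Selplg, Tmem119 and Olfml3, the genes that differed most in RNA at PND8, did not share a course of H3K27ac there. Tmem119 had 5458 and 13661 bp in adult cells and 9671 to 12102 bp in the 4 PND8 libraries, which lay between the 2 adult ones. Selplg had 7893 and 15505 bp in adult cells and 10463 to 12532 bp at PND8, again in between. Without adult replicate 1, Tmem119 and Selplg were shorter at PND8 than adult in both Ki67 classes, where 22.1% and 16.5% of all genes were shorter. Olfml3 had 3020 and 5397 bp in adult cells and 5684 to 7461 bp at PND8, above both, where 43.3% and 51.1% of all genes were longer in Ki67-negative and Ki67-positive cells. At the start of Tmem119, adult replicate 1 had a region of 625 bp, ranked 14652 of its 19572 regions, and every other library had a longer one.

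Cuprizone, for which no RNA was analysed here, left most lengths overlapping adult. Slco2b1 was longer than adult, with 6792 and 8070 bp in Ki67-negative and 7150 and 7801 bp in Ki67-positive cells against 4956 and 5746 bp, where 31.1% and 38.1% of all genes were longer. Olfml3 was longer in Ki67-positive cells alone, with 5704 and 7734 bp, and had 5372 and 6689 bp in Ki67-negative cells; the difference between these classes was not tested. In repopulating cells Slco2b1 (6355 and 7023 bp) and Olfml3 (7017 and 6875 bp) were also longer than adult, where 54.4% of all genes were. Cx3cr1 had 8883 to 11968 bp and Siglech 7407 to 9792 bp over the 12 libraries, and neither separated any group from adult.

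Between the Ki67 classes, PND8 Ki67-positive libraries had longer Tmem119 coverage (11303 and 12102 against 9671 and 10803 bp) and shorter Slco2b1 coverage (5602 and 5212 against 5686 and 5943 bp). In all 23.8% of genes were longer and 8.05% shorter in that pair. After cuprizone, Ki67-positive libraries had longer Siglech coverage (8709 and 9103 against 8456 and 8409 bp) and shorter Cx3cr1 (10006 and 11147 against 11614 and 11968 bp) and Gpr34 coverage (8634 and 8685 against 9173 and 8774 bp), with 12.4% of all genes longer and 8.68% shorter. Repopulating Ki67-positive libraries were longer than PND8 Ki67-positive ones for Slco2b1, Selplg and Sparc and shorter for Fcrls, with 25.5% of all genes longer and 16.0% shorter. At 8 times the input Slco2b1 at PND8, Siglech after cuprizone and Selplg between repopulation and PND8 no longer separated.

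**Figure D5:**
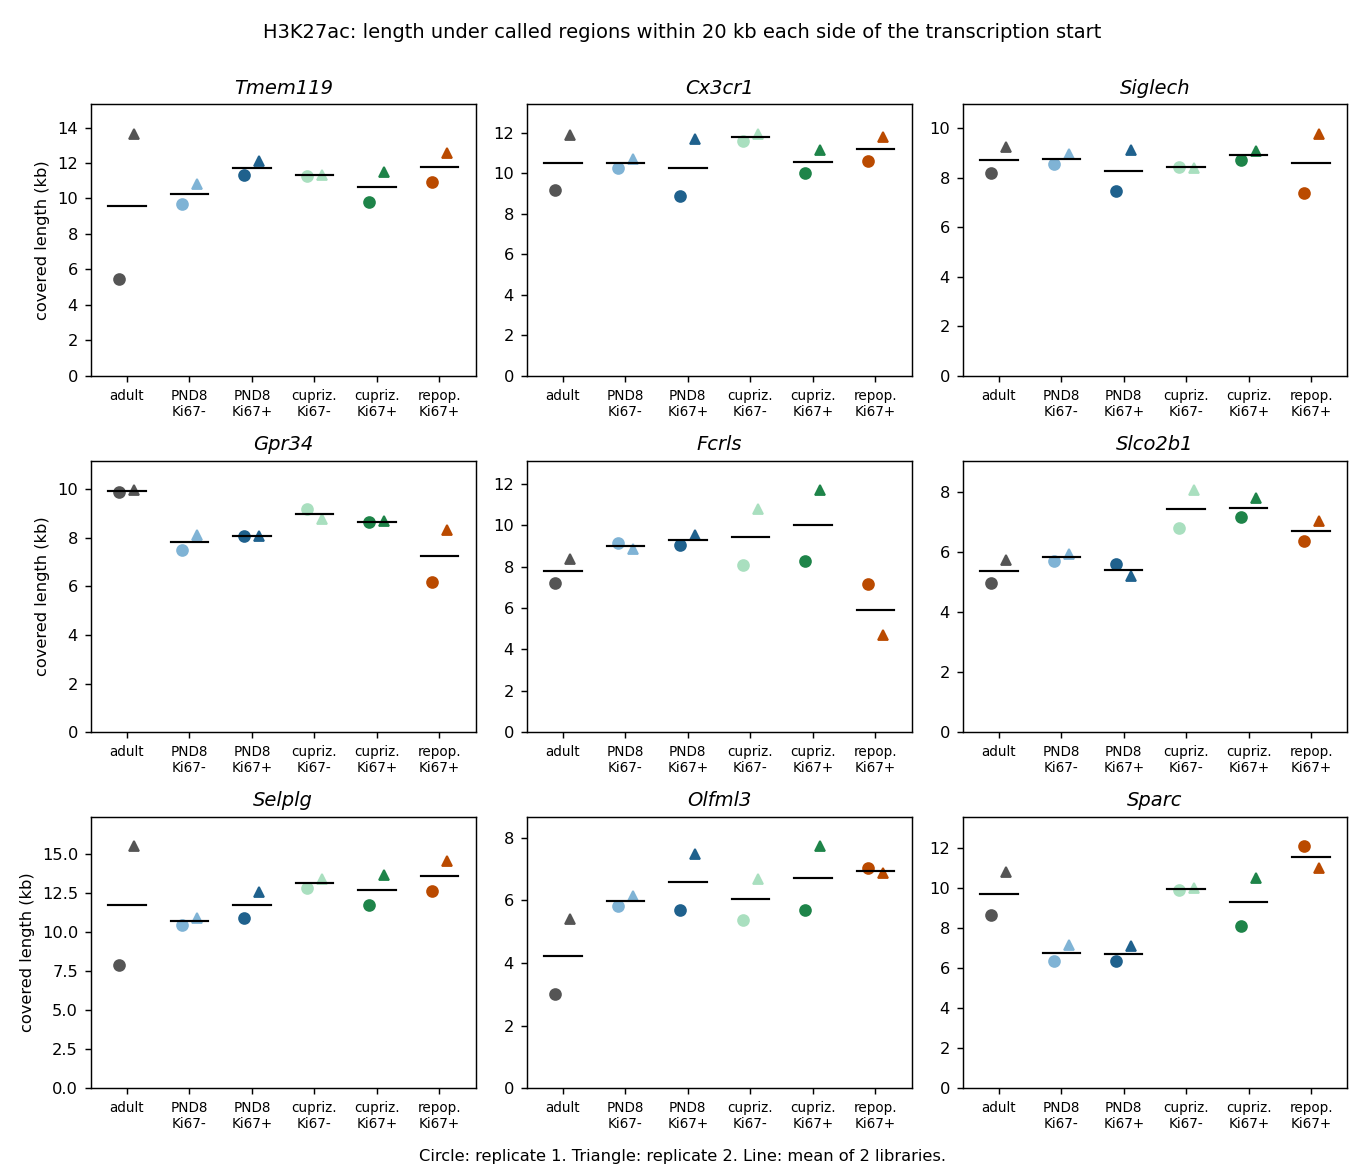
Base pairs covered by H3K27ac regions within 20 kb on each side of each start (vertical axis, from 0, 1 panel per gene) in the 12 libraries, by group (cupriz. cuprizone, repop. repopulation), with a circle for replicate 1, a triangle for replicate 2 and a line for the mean of 2 libraries. Adult replicate 1 lies far below replicate 2 for Tmem119 (5458 against 13661 bp) and Selplg (7893 against 15505 bp), Fcrls is lowest in repopulation and Gpr34 is highest in adult cells.

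RefSeq gives 3 starts for Slco2b1, and 1 of them lay inside H3K27ac regions. The start used in the counts, chr7 position 99706842, lay inside an H3K27ac region in all 12 libraries and inside an H3K4me3 region, the mark of active promoters, in both adult libraries. The upstream start at 99711340, whose window holds AGGAAGT, lay inside no H3K27ac or H3K4me3 region, and the start at 99695809 lay inside none either. Within 1 kb of the upstream start, H3K27ac covered 872 and 827 bp in repopulation and 500 bp in 1 library of each cuprizone class. It covered 0 bp there in adult and PND8 libraries. The upstream start and the start used in the counts both lay inside open chromatin peaks in PND8 and repopulating Ki67-positive cells, but not in adult cells (1 library each). Both H3K4me3 libraries of adult cells, 75 days old, had a region within 1 kb of all 9 starts, a count with no share over all genes beside it. By the authors' signal Cx3cr1 ranked 61 and 121 and Tmem119 ranked 87 and 80 among 19346 and 19232 regions, whereas Fcrls ranked 6548 and 7897.

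Open chromatin (ATAC-seq, 1 library each for adult, PND8 Ki67-positive and repopulating Ki67-positive cells) had a peak within 1 kb of all 9 starts in all 3 libraries. Rpb2 had a peak within 1 kb of 8 of the 9 starts in each of its 3 libraries. The gene without one was Olfml3 in adult replicate 1, Gpr34 in adult replicate 2 and Slco2b1 in PND8 Ki67-positive cells. No share over all genes stands beside these open chromatin and Rpb2 counts, so they cannot be read against a background. Cx3cr1 had the highest ranked Rpb2 peak of the 9 in every library, at 444 of 14550 and 539 of 10544 in adult cells and 413 of 31602 at PND8.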

How the data were processed

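RNA values are the authors' raw counts per gene, made with HOMER over the exons of mm10 transcripts with 1 transcript per gene, no adjustment and at most 3 tags per position, per the file headers. That limit can hold down short, abundant transcripts. TPM values came from the same tool in TPM mode, per the file headers. H3K27ac regions were called by the authors with HOMER in each library separately, in steps of 500 bp and at least 4 times the input, per the file headers. Each region carries a signal, a tag count scaled to 10000000 tags, and a fold ratio over input, both deposited by the authors and used only to rank or filter regions within a list. The column names of the H3K27ac lists are shifted against their values, so columns were read by their content. The submitters' processing notes name STAR 2.7.0f, Bowtie2 2.3.4.1, HOMER 4.11 and DESeq2 with the build mm10. They do not tie a tool to a file.

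Counts were tested with edgeR 4.0.16 in R 4.3.3, with TMM factors, the filterByExpr filter and 1 quasi-likelihood fit of all 10 RNA libraries with a term per group. The 12230 genes left shared a biological coefficient of variation of 0.0957. Benjamini-Hochberg adjusted p-values under 0.05 over those genes were calls, in 8 comparisons and 1 interaction. Alternatives used DESeq2 1.42.0, limma 3.58.1 on log2(TPM + 1) and other scalings, filters and subsets. On simulated counts for repopulating Ki67-positive against adult cells (12003 genes), the code called 14 of 64 genes changed by 0.5 on the log2 scale. It called 63 of 67 changed by 1 and 69 of 69 changed by 2, with 5 unchanged genes called and 0 in a contrast with no change. Far fewer genes were changed there than the 5489 of 12230 called in the data, which makes the adjusted threshold stricter. Those counts also had 1 spread for all genes and no limit on tags per position. The rates therefore do not give the power for the members. The spread between the 2 replicates of a group exceeded counting noise throughout (chi-square over its degrees of freedom, 2.53 to 11.8).

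Samples were grouped by the labels alone. The genes named were the 9 members, the 2 genes most like each by Pearson's r, up to 3 called genes with the largest changes from a list of 32 other microglial genes, and 5 partners (Tyrobp, Adam10, Adam17, Abhd12 and Abhd16a). A gene that the rule takes in is not reported here. Cx3cl1 and Syk were named after their values were seen. The members, lists and motifs were chosen with earlier results of these data known. The H3K27ac lengths were compared within 20 kb of the start of the transcript in the count table. The depth covariate, the scaling from sparse genes and the alternatives for H3K27ac lengths were chosen after seeing the data. Inputs were not used as values of their own.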

Additional observations from a re-analysis of the deposited data

Results flagged for a closer look

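In all, 6 of the 9 genes differed between the contexts by a direct test of repopulation against PND8 in both Ki67 classes, which is the difference of their effects against the same adult cells. By edgeR's quasi-likelihood test the log2 difference was −1.08 in Ki67-negative and −1.04 in Ki67-positive cells for Fcrls, lower in all 4 repopulation libraries than in all 4 PND8 libraries. It was 0.75 and 0.92 for Selplg, 0.58 and 0.62 for Tmem119 and 0.49 and 0.57 for Olfml3, each higher in all 4 repopulation libraries than in all 4 PND8 libraries. Siglech was higher by 0.40 and 0.49 and Slco2b1 by 0.27 and 0.31, again with no overlap between the contexts. The Ki67-negative call of Siglech and both calls of Slco2b1 depended on single libraries. In Ki67-positive cells the call of Siglech held when any 1 library was left out (0.43 to 0.49). Slco2b1 was not called in either class when the fit held a term for the code in the column headers (adjusted p = 0.0737 and 0.0532), and neither Siglech (0.0659) nor Slco2b1 (0.213) was called in Ki67-negative cells when only those 2 groups were fitted. Of all genes 36.6% were called in Ki67-negative and 30.9% in Ki67-positive cells. Border macrophage markers summed to 609.9 to 859.6 CPM at PND8, of which Mrc1 alone gave 519.7 to 833.6 CPM, and to 26.2 to 43.0 CPM in repopulation, and their part in these differences was not tested.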

How the results depend on the processing

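With the replicate number as a block, the 9 genes kept their counts of calls: 0 between the Ki67 classes at PND8 and in repopulation, 5 and 6 for PND8 against adult, 4 and 4 for repopulation against adult, 6 and 7 for repopulation against PND8 and 0 for the interaction. The block changed no member's call. Same-numbered libraries deviated together with r = 0.338 between the PND8 classes and 0.263 between the repopulation classes, and with −0.01 to 0.10 elsewhere. Within each of these 2 contexts, same-numbered libraries also share a header code. The main fit did not take them as pairs, so the deviation shared within a context was not modelled in its Ki67 comparisons. When 1 library was left out, the count of members called ranged from 5 to 8 for PND8 Ki67-negative against adult, from 1 to 3 for repopulating Ki67-negative and from 2 to 3 for repopulating Ki67-positive against adult, and from 4 to 8 for repopulation against PND8 in Ki67-negative cells. Without PND8 Ki67-negative replicate 1 it was 8, and without either adult library it was 1 for repopulating Ki67-negative cells.

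Values near 0 changed sign. With library size alone, Selplg in repopulating Ki67-negative cells was −0.0252, Olfml3 in repopulating Ki67-positive cells −0.00718 and Gpr34 in repopulation against PND8 (Ki67-positive) −0.0435. With limma on log2(TPM + 1) Selplg was −0.0581 and −0.0490, Olfml3 −0.0562 and Gpr34 −0.0486, and with depth as a covariate Selplg was −0.0134 and −0.0223, Olfml3 −0.0303 and Gpr34 −0.00975. Leaving out 1 library moved Sparc at PND8 between −0.00858 and 0.354 (Ki67-negative) and between −0.036 and 0.0765 (Ki67-positive), Fcrls at PND8 Ki67-negative between −0.224 and 0.0516, and Gpr34 in repopulation against PND8 (Ki67-positive) between −0.0216 and 0.0441. In repopulating Ki67-negative and Ki67-positive cells against adult it moved Tmem119 between −0.174 and 0.125 and between −0.128 and 0.0313, Olfml3 between −0.229 and 0.0301 and between −0.0478 and 0.0716, and Selplg between −0.135 and 0.160 and between −0.0445 and 0.0833. The cause was not tested. None of these values was a call with all libraries.

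Over all genes, calls between the Ki67 classes moved from 721 at PND8 to 1228 with the block, 1631 with the header code, 1290 without a filter and 392 with the PND8 libraries alone, and to 220 and 452 when Ki67-positive replicate 2 or 1 was left out and 1113 when Ki67-negative replicate 1 was. In repopulation they moved from 335 to 711 with the block, 998 with the header code, 736 without a filter, 105 when Ki67-negative replicate 1 and 122 when Ki67-positive replicate 2 was left out. Calls of the interaction rose from 0 to 3 with DESeq2, 11 with the header code, 52 without a filter and 71 without PND8 Ki67-negative replicate 1. For repopulation against adult they fell from 4789 to 3078 without Ki67-negative replicate 2 and from 5489 to 3640 without Ki67-positive replicate 2, and to 3158 (Ki67-negative) without either adult library. For repopulation against PND8 they fell from 4473 to 2869 without repopulation Ki67-negative replicate 1 and from 3778 to 2269 without repopulation Ki67-positive replicate 1, 2430 and 2503 without a PND8 library. With library size alone, repopulation against PND8 had 1829 higher and 3064 lower genes in Ki67-negative cells (2203 and 2270 with TMM) and 1730 and 2222 in Ki67-positive cells (2040 and 1738 with TMM).

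An H3K27ac region lay within 1 kb of all 9 starts in every group under the alternatives run, except that an overlap of at least 200 bp left 8 and a minimum of 8 times the input left 7, both in adult cells. Members with lengths that do not overlap fell at 8 times the input from 4 to 2 for PND8 Ki67-negative, from 2 to 1 for cuprizone Ki67-negative, from 3 to 1 for cuprizone Ki67-positive and from 5 to 3 for repopulation, all against adult, while the share of all genes went from 48.9% to 50.0%, 33.4% to 19.6%, 41.3% to 23.8% and 57.1% to 23.8%. With 1 library left out these counts ranged from 4 to 9, 2 to 9, 4 to 8 and 6 to 8, and for PND8 Ki67-positive against adult from 4 to 9. They ranged from 4 to 7 and 4 to 8 between the Ki67 classes at PND8 and after cuprizone, and from 5 to 8 for repopulation against PND8, since a group of 1 library overlaps less. The share of all genes then ranged from 50.3% to 80.4% over the 5 comparisons with adult and from 51.9% to 70.5% over the other 3.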
